A study of Mus musculus with 24 samples.

Results

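The 8 genes described here, Atf3, Atf4, Xbp1, Cebpa, Cebpb, Cebpd, Cebpg and Nfil3, encode basic leucine zipper (bZIP) transcription factors that cells use in their responses to stress. They were chosen by gene symbol, as a family, and every probe set annotated to exactly 1 of these symbols was kept. This gave 17 probe sets of the 20380 on the array that carry 1 symbol, and 8 of the 12393 genes measured. Ddit3, which encodes the related factor CHOP and was deleted in part of the mice, and Atf5 are not members. Unless stated otherwise a gene is read from its brightest probe set, and all values are log2 expression, a scale on which a difference of 1 is a doubling.

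bZIP proteins bind DNA as pairs, and the partner decides which sequence is read. When misfolded protein accumulates in the endoplasmic reticulum (ER), the kinase PERK slows translation in general but favours that of ATF4, which then switches on genes of amino acid supply, ATF3 and CHOP. In parallel the nuclease IRE1 splices the Xbp1 messenger RNA, so that XBP1 protein can raise the folding and degradation capacity of the ER. The C/EBP members act as partners of ATF4 (C/EBP-gamma), in inflammation and the acute phase (C/EBP-beta and C/EBP-delta) or in fat and myeloid cells (C/EBP-alpha), and NFIL3 is a repressor known from immune cells and the circadian clock. Schwann cells, which make the myelin of peripheral nerve, raise ATF3 after nerve injury. The amounts of ATF4 protein and of spliced Xbp1 are set after transcription, and these arrays did not measure either.

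The study compared mouse sciatic nerves of 4 genotypes at 3 ages, with 2 arrays in each of the 12 groups and 24 in all. The genotypes were wild type (WT), mice with the mutant myelin protein P0S63del (S63del), mice without the Ddit3 gene (Chop null), and S63del mice that also lacked Ddit3 (S63del/Chop null). S63del is a model of the demyelinating neuropathy Charcot-Marie-Tooth 1B, and the labels call S63del nerves neuropathic and those of S63del/Chop null mice neuropathic but rescued. Nerves were taken at postnatal day 5 (P5), when myelination begins, at P28, near its peak, and at 4 months, when the rescue by loss of CHOP could be seen. The labels do not give the sex of the mice, the copy number or promoter of the mutant gene, or whether an array held 1 animal or a pool. They call the arrays biological replicates without naming the animals, so p-values measure the spread between these arrays.

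RNA came from whole nerve without its perineurial sheath, so that fewer cells of a type and less RNA per cell cannot be told apart. The 13 measured Schwann cell and myelin markers had a mean log2 level of 11.25 to 11.95 on every array, against array medians of 6.84 to 7.03. Ddit3 lay between 6.60 and 7.37 in the 12 arrays of the genotypes that lack it and between 7.61 and 9.59 in the other 12. Some technical measures moved with the genotypes at P28: the signal of the control probe sets for 18S ribosomal RNA was 5.21 to 5.82 in the 4 arrays with S63del and 8.61 to 9.78 in the 4 without it. The interquartile range of these arrays was 3.383 to 3.517 log2 units with S63del and 2.902 to 3.381 without it. Chop null replicate 2 at P28 had the narrowest distribution of all (interquartile range 2.90 log2 units). At 4 months the 3′ minus 5′ difference of the Gapdh control probes, a measure of RNA integrity, was 2.12 in 1 WT array and 0.08 in the other. It was 1.32 and 1.05 in S63del, 0.35 and 0.55 in S63del/Chop null, and 0.03 and -0.04 in Chop null. The part of RNA integrity in the members' differences was not tested. Differences are given in log2 units ± SE from limma with 2 arrays against 2, on 12 residual degrees of freedom. A gene counts as changed at a Benjamini-Hochberg adjusted p under 0.05 over all genes.

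In nerves with the mutant protein Atf3 and Cebpd were higher than in nerves without it at P5 and P28, Xbp1 at P28, and Cebpb at P28 without CHOP and on average over the ages, while Atf4, Cebpa, Cebpg and Nfil3 did not pass the test in any of these comparisons. At P5 Atf3 and Cebpd rose in S63del against WT, 2 of the 8 members, where 2.40% of all genes changed. At P28 Atf3, Cebpd and Xbp1 rose, 3 of 8, against 4.62% of all genes. At 4 months none of the 8 passed, as was the case for all genes (0.00%), although 2 members and 577 genes had an unadjusted p under 0.05. The median difference over the 8 members was 0.24 at P5, 0.46 at P28 and 0.10 at 4 months, beside -0.02, 0.01 and 0.00 (-0.0042 before rounding) over all genes.

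The same contrast in mice without CHOP, S63del/Chop null against Chop null, uses other arrays. There Atf3 and Cebpd rose at P5, 2 of 8, beside 1.78% of all genes, and Atf3, Xbp1, Cebpd and Cebpb rose at P28, 4 of 8, beside 17.8%. At 4 months 0 of 8 passed, beside 0.00% of all genes, and 1 member and 181 genes had an unadjusted p under 0.05. No member fell in S63del against WT or in S63del/Chop null against Chop null at any age.

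**Figure D1:**
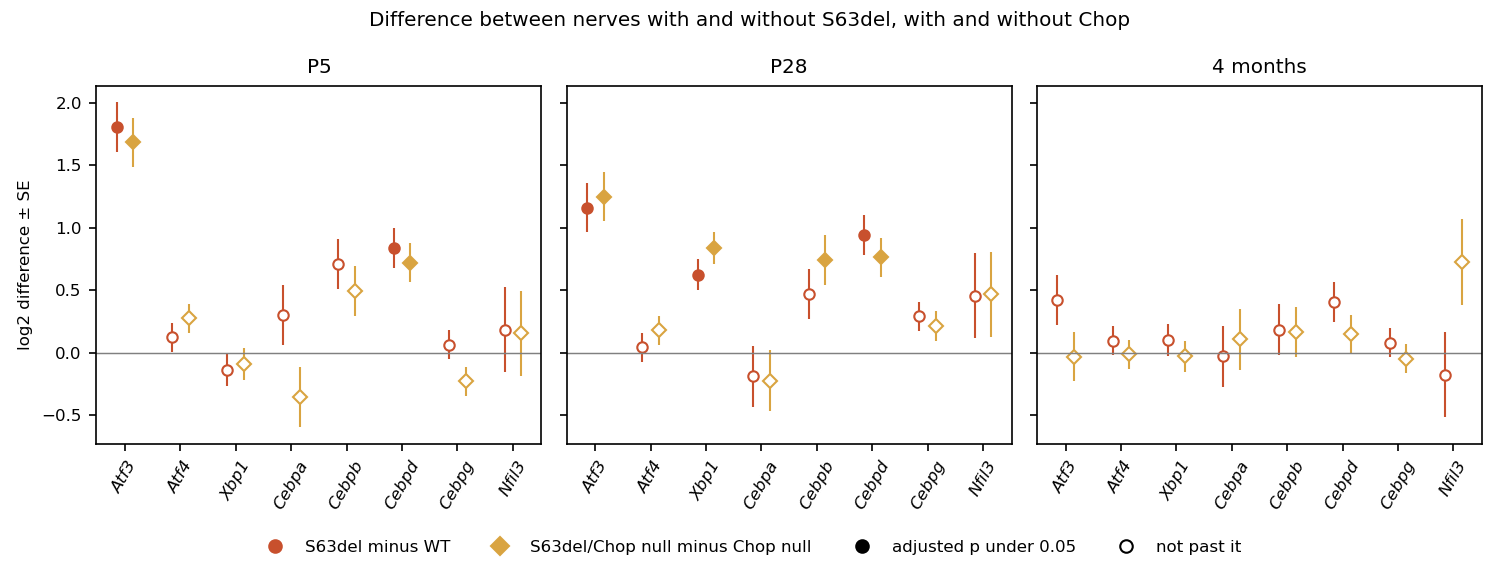
Difference in log2 expression of each member between nerves with and without S63del, at the 3 ages. Points are limma differences and bars their SE (2 arrays against 2), red circles S63del minus WT and yellow diamonds S63del/Chop null minus Chop null, and filled symbols passed an adjusted p of 0.05. Atf3 leads at P5 and P28, and no member passed at 4 months.

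Atf3 encodes a factor that is scarce in resting cells and rises within a short time of many stresses. At P5 the log2 values were 7.45 and 7.25 for WT, 7.34 and 7.10 for Chop null, 9.24 and 9.08 for S63del, and 9.03 and 8.78 for S63del/Chop null. All 4 arrays with the mutant protein thus lay above all 4 without it, with a gap wider than the spread on either side. Atf3 rose by 1.81 ± 0.20 in S63del against WT (3.50-fold, adjusted p = 3.48e-05) and by 1.68 ± 0.20 in S63del/Chop null against Chop null (3.21-fold, adjusted p = 9.82e-05). Both calls held under each of the 13 alternative settings tried for each.

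At P28 the values of Atf3 were 6.81 and 7.21 for WT, 7.01 and 7.12 for Chop null, 8.08 and 8.27 for S63del, and 8.19 and 8.44 for S63del/Chop null. The arrays with and without S63del were again separate. The rise was 1.16 ± 0.20 over WT (2.24-fold, adjusted p = 0.0031) and 1.25 ± 0.20 over Chop null (2.38-fold, adjusted p = 0.00116). The first of these calls was lost without WT replicate 1 (0.96, adjusted p = 0.0659) and with the 8 arrays of P28 alone (adjusted p = 0.0502), the second with array weights (adjusted p = 0.321).

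At 4 months Atf3 stood at 7.65 and 7.71 for WT, 8.22 and 7.55 for Chop null, 8.01 and 8.20 for S63del, and 7.67 and 8.04 for S63del/Chop null. One Chop null array was the highest of the 8, and the groups overlapped except for S63del, which lay above WT. The differences were 0.42 ± 0.20 in S63del against WT, with an adjusted p of 1, and -0.03 ± 0.20 without CHOP. The S63del against WT difference of Atf3 was 1.39 ± 0.28 smaller at 4 months than at P5 (-1.39, adjusted p = 0.0474), which made it the only member called in a test of that difference, beside 0.282% of all genes. This call was lost without any 1 of the 8 arrays behind it (adjusted p up to 0.263), so that it rests on the full set.

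Ranked over the 12 groups, the 4 highest means of Atf3 were those of the S63del genotypes at P5 and P28 and the lowest that of WT at P28. S63del at P5 lay above S63del/Chop null at P5, and both lay above all later groups without overlap. From the third mean (8.31, S63del/Chop null at P28) down to the eighth (7.68, WT at 4 months) each group's arrays overlapped those of the next. In WT alone Atf3 did not pass the test between ages (-0.34 ± 0.20 from P5 to P28, adjusted p = 0.147, and 0.33 ± 0.20 to 4 months, adjusted p = 0.226).

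**Figure D2:**
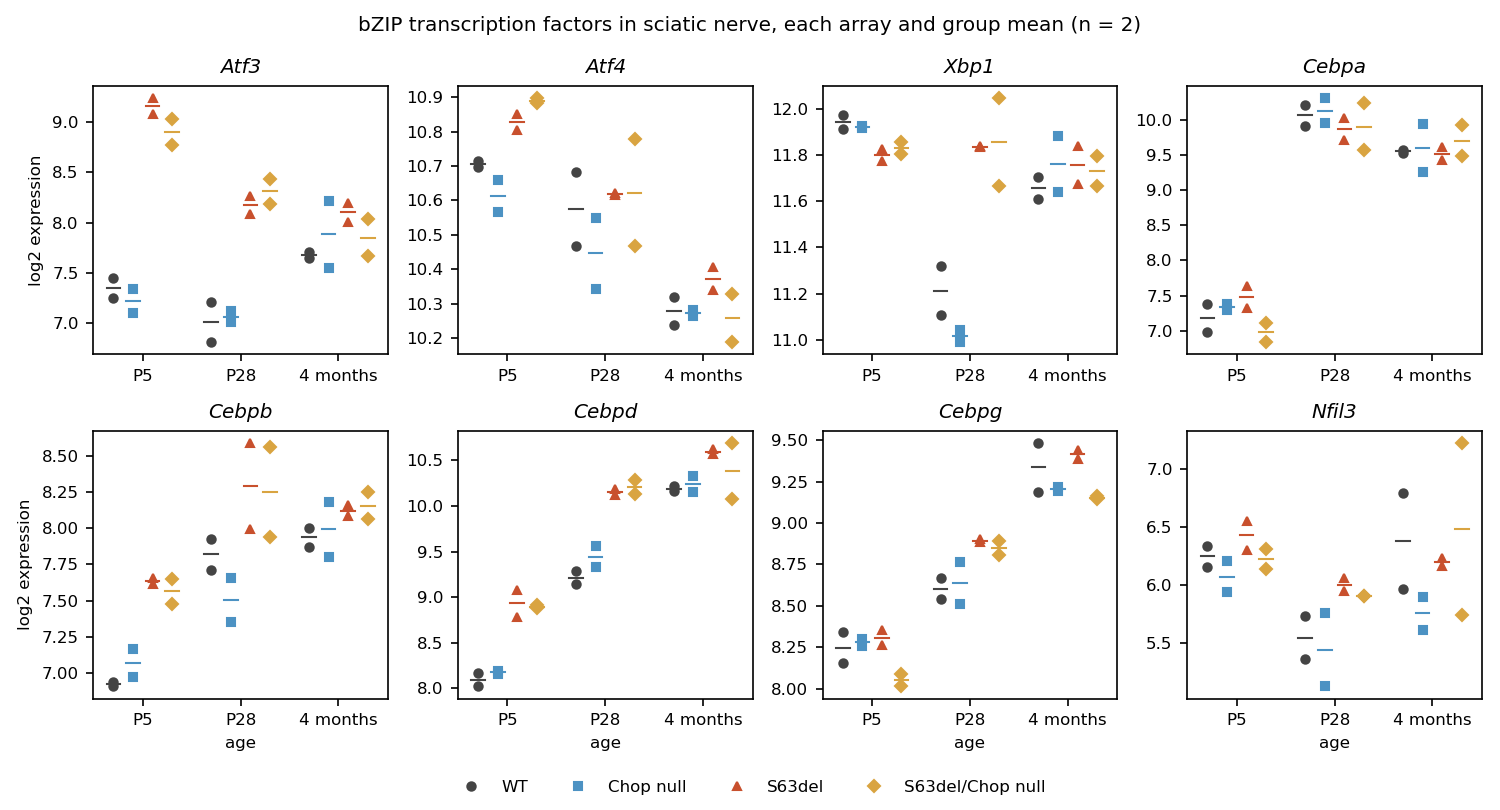
Log2 expression of the 8 members in every array, by age (x axis) and genotype (symbol and colour), with a line at each group mean of 2 arrays. Each panel has its own scale. The arrays with S63del lie above the others in Atf3, Cebpb and Cebpd at P5 and P28. They do so in Atf4 at P5, and in Xbp1, Cebpg and Nfil3 at P28. Of all genes 11.0% were separated upward at P5 and 12.1% at P28. Xbp1 lies just below at P5, and Cebpa differs between ages.

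The promoters of the members were read from RefSeq (GRCm38.p6) as the 250 bases before each gene's start, and 7 of the 8 members had an entry, all but Cebpd. Each was searched on both strands for 7 motifs of bZIP proteins: the C/EBP-ATF composite core TGATGCAA, which ATF4 reads together with a C/EBP partner, the cyclic AMP response element TGACGTCA and its variant TGACGTAA, the UPR element core TGACGTGG, the C/EBP palindrome TTGCGCAA, the AP-1 element TGACTCA and the NFIL3 D-box TTATGTAA. Atf3 is printed because it held the matches, and Cebpb and Xbp1 because they are the other members called in an S63del comparison that have an entry. Capitals mark a match, and each run is written 5′ to 3′ on the gene's strand.

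Atf3, chr1:191183334-191183583, minus strand: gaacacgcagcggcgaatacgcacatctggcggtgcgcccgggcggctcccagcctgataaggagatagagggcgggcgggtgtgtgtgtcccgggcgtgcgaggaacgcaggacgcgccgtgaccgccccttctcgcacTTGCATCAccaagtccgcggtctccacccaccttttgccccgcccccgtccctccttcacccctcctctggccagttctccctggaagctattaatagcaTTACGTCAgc
Cebpb, chr2:167688665-167688914, plus strand: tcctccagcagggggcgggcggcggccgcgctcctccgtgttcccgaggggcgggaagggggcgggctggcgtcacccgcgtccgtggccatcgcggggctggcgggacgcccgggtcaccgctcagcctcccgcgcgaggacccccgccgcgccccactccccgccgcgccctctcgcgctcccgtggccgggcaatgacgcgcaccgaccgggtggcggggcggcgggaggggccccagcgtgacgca
Xbp1, chr11:5520391-5520640, plus strand: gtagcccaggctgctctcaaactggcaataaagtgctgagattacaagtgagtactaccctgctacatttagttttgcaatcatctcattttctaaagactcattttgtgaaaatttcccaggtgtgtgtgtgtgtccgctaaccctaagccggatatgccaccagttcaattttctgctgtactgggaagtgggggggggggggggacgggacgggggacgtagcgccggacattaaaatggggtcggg

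Atf3 held the composite core on the opposite strand, so that it reads TTGCATCA above, beginning 110 bases before the start, and the variant element, read as TTACGTCA, 10 bases before it. The matches do not overlap. Of 32851 promoters of the same length 0.791% held the composite core and 0.447% the variant. The other motifs occur in 1.55% (TGACGTCA), 0.563% (TGACGTGG), 0.164% (TTGCGCAA), 4.46% (TGACTCA) and 0.819% (TTATGTAA) of them. The letters of all 7 motifs were lacking in this window of the other 6 members with an entry, and a match is a description of the sequence, with no measure of binding.

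Atf4, the factor whose translation rises when PERK is active, did not pass the test by its brightest probe set. At P5 its values were 10.72 and 10.70 for WT, 10.57 and 10.66 for Chop null, 10.85 and 10.81 for S63del, and 10.88 and 10.90 for S63del/Chop null. The arrays with S63del lay above the others, by a small distance. The difference was 0.12 ± 0.12 over WT (95% interval -0.12 to 0.37, adjusted p = 0.869) and 0.28 ± 0.12 over Chop null (interval 0.03 to 0.52, adjusted p = 0.45), and the latter passed with array weights (adjusted p = 0.0319). At P28 and 4 months S63del against WT gave 0.04 ± 0.12 and 0.09 ± 0.12, with intervals that end at 0.29 and 0.34. Atf4 has 3 probe sets, and the middle one by brightness (mean 8.89) was called in S63del/Chop null against Chop null at P28 with 1.26 ± 0.27 (adjusted p over all probe sets 0.00893), where the brightest gave 0.18 ± 0.12. At P5 that middle probe set gave 0.51 ± 0.27 over WT (adjusted p over all probe sets 0.613) and 0.35 ± 0.27 over Chop null, and its 4 arrays with S63del, at 9.48 to 9.64, lay above the other 4, at 8.92 to 9.29. The 4 arrays without S63del ranged from 7.26 to 8.88 on that middle probe set at P28. The lowest was Chop null replicate 2, the array with the narrowest distribution, and Chop null replicate 1 read 8.46.

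Genes that ATF4 is known to switch on, from a list of 37 with 33 measured, were counted beside it. At P5 4 were higher and 0 lower in S63del against WT, with a median of 0.24, led by Asns (2.64 ± 0.15), which makes asparagine, Chac1 (1.94 ± 0.17), which degrades glutathione, and the amino acid carrier Slc7a3 (1.13 ± 0.17). At P28 2 were higher, Asns (0.77 ± 0.15) and Psph (0.87 ± 0.19), an enzyme of serine synthesis, and the median was 0.09. Over Chop null 5 were higher and 0 lower at P5 (median 0.33), and at P28 7 were higher, led by Asns (1.06 ± 0.15), and 1 lower, with a median of -0.05 and 15 of 33 above 0. At 4 months none was called. Of all genes 4.62% were called over WT at P28 and 17.8% over Chop null. The mean level of the list was 8.12 to 8.25 in the 4 arrays with S63del at P5 and 7.70 to 7.80 in the other 4. Over the 24 arrays, after the mean of each age was taken off, the list's mean level had a Pearson r of 0.90 with Atf3 and 0.59 with Atf4, a description over arrays that share their genotypes.

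Xbp1, whose messenger RNA is spliced by IRE1, passed the test between genotypes at P28 only. At P5 its values were 11.97 and 11.92 for WT, 11.93 and 11.92 for Chop null, 11.83 and 11.78 for S63del, and 11.81 and 11.86 for S63del/Chop null. The 4 arrays with S63del lay just below the others, but the differences of -0.14 ± 0.13 and -0.09 ± 0.13 did not pass (adjusted p = 0.855 and 0.9995).

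At P28 Xbp1 stood at 11.10 and 11.32 for WT, 10.99 and 11.04 for Chop null, 11.84 and 11.84 for S63del, and 11.67 and 12.05 for S63del/Chop null. All arrays with S63del were now above all without it, and WT and Chop null at P28 had the lowest means of all 12 groups. Xbp1 rose by 0.63 ± 0.13 over WT (1.54-fold, adjusted p = 0.0103) and by 0.84 ± 0.13 over Chop null (1.79-fold, adjusted p = 0.000819). In WT Xbp1 fell by 0.73 ± 0.13 from P5 to P28 (adjusted p = 0.000138), whereas S63del nerves had 11.80 on average at P5 and 11.84 at P28. The test of the S63del difference between P28 and P5 gave 0.77 ± 0.18 and missed the threshold (adjusted p = 0.0781), with 0 of 8 members and 0.476% of all genes called, though 2 members and 1006 genes had an unadjusted p under 0.05. It passed in 4 of 16 alternative settings.

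The rise of Xbp1 over WT at P28 was lost without WT replicate 1 (0.52, adjusted p = 0.139) and without either S63del array (adjusted p = 0.0937 and 0.0595), as well as with the 8 arrays of that age alone (adjusted p = 0.272). Without CHOP it was lost with array weights (adjusted p = 0.267) and with that age alone (adjusted p = 0.0895).

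Of the 4 probe sets of Xbp1, the 3 bright ones moved the same way in S63del against WT at P28, with 0.63 ± 0.13, 0.48 ± 0.12 and 0.46 ± 0.15, the first 2 past the threshold over all probe sets (adjusted p = 0.0136 and 0.0379) and the third not (adjusted p = 0.0944). The fourth, dim one (mean 6.80) went the other way with -0.60 ± 0.22 (adjusted p = 0.147). In WT from P5 to P28 the 3 bright ones fell by 0.73, 0.40 and 0.86 while the dim one rose by 0.84 ± 0.22 (adjusted p = 0.00429). The labels and annotation do not say which transcript or strand the dim probe set reads. With the mean of all 4 in place of the brightest, the difference at P28 was 0.24 and did not pass (adjusted p = 0.193).

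**Figure D3:**
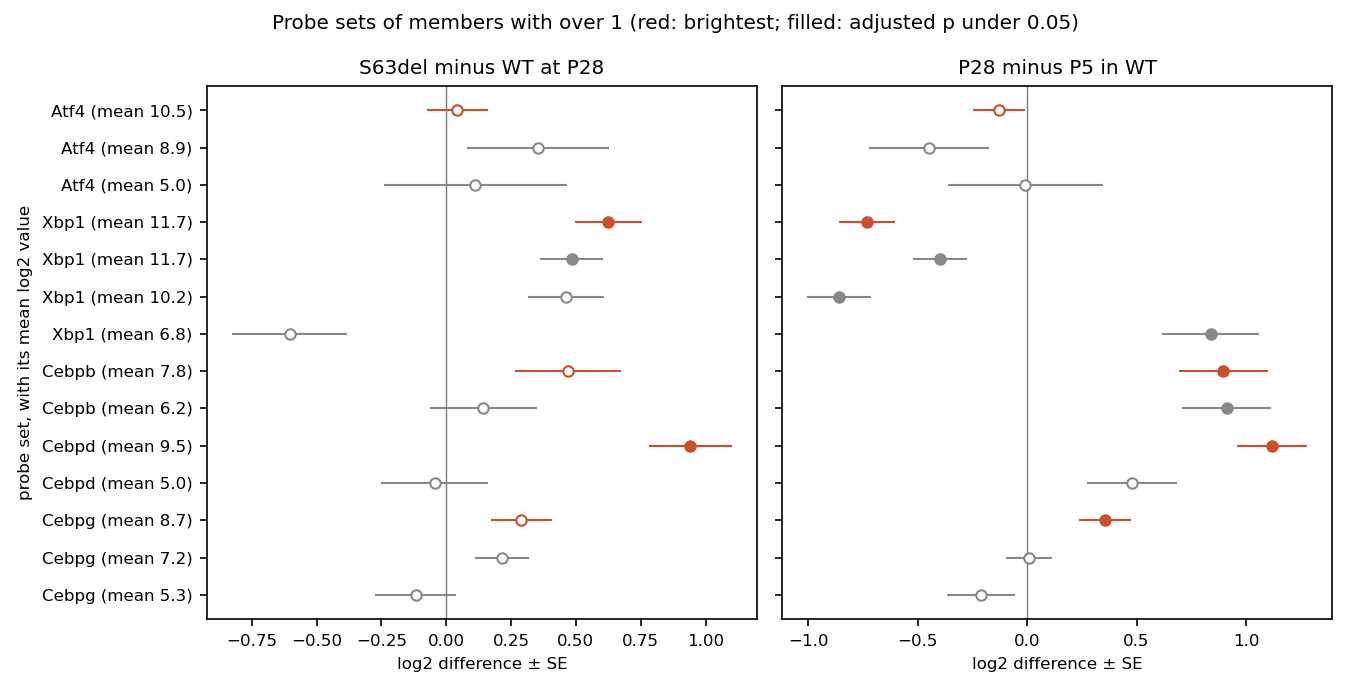
Log2 difference ± SE (x axis) of each probe set of the members that have more than 1, in S63del minus WT at P28 (left) and in WT at P28 minus P5 (right). The mean log2 value over the 24 arrays is given in brackets, red marks the brightest probe set of a gene and filled points passed an adjusted p of 0.05 over all probe sets. The dim probe set of Xbp1 lies opposite to its 3 bright ones in both panels.

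Genes of the ER that XBP1 is known to control (39 measured of a list of 41) were higher in S63del at both early ages. At P5 9 rose over WT and 0 fell, with a median of 0.30, among them Sdf2l1 (2.31 ± 0.20) and Derl3 (2.41 ± 0.24), which act in folding and in the removal of misfolded proteins, and the disulfide isomerase Pdia4 (0.97 ± 0.12). At P28 16 rose and 0 fell, with a median of 0.48, among them Sdf2l1 (1.71 ± 0.20), Creld2 (1.54 ± 0.22) and Syvn1 (0.96 ± 0.15), a ubiquitin ligase of the ER. Members of the list thus rose at P5, an age at which Xbp1 itself did not pass. Its mean level was 10.55 to 10.56 in arrays with S63del and 10.03 to 10.09 in the others at P5, and 10.23 to 10.31 against 9.58 to 9.84 at P28. At 4 months the ranges overlapped (9.81 to 10.08 and 9.80 to 10.01) and 0 of 39 passed. Across the 24 arrays, age means removed, the list's level had r = 0.93 with Atf3, 0.93 with Cebpd and 0.59 with Xbp1.

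Cebpd and Cebpb encode C/EBP-delta and C/EBP-beta, which cytokines raise in many tissues. At P5 Cebpd was 8.02 and 8.17 for WT, 8.19 and 8.16 for Chop null, 9.08 and 8.79 for S63del, and 8.91 and 8.88 for S63del/Chop null. At P28 it was 9.14 and 9.29, 9.56 and 9.33, 10.19 and 10.12, and 10.28 and 10.14 in the same order. The arrays with S63del were above all others at both ages.

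Cebpd rose in S63del against WT by 0.84 ± 0.16 at P5 (1.79-fold, adjusted p = 0.0061) and by 0.94 ± 0.16 at P28 (1.92-fold, adjusted p = 0.00276). Over Chop null it rose by 0.72 ± 0.16 at P5 (adjusted p = 0.0224) and by 0.76 ± 0.16 at P28 (adjusted p = 0.00617). At 4 months S63del, with 10.57 and 10.62, still lay above WT, with 10.16 and 10.21, but the difference of 0.41 ± 0.16 did not pass (adjusted p = 0.922), and S63del/Chop null, at 10.08 and 10.69, spanned both. At P5 the call over WT was lost without WT replicate 1 (adjusted p = 0.0945) and also without S63del replicate 1 (adjusted p = 0.122), and that over Chop null without any 1 of its 4 arrays (adjusted p up to 0.191). At P28 the call over WT was lost with the 8 arrays of that age alone (adjusted p = 0.0557), and that over Chop null in the same way (adjusted p = 0.0871), with array weights (adjusted p = 0.391) and without Chop null replicate 2 (0.65, adjusted p = 0.0593). The second probe set of Cebpd was above the array median on 0 of 24 arrays, and the mean of both gave 0.46 at P5 and 0.45 at P28 over WT, neither past the threshold (adjusted p = 0.0719 and 0.0562). Over Chop null that mean gave 0.40 (adjusted p = 0.176) and 0.14 (adjusted p = 0.429).

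Cebpb was 6.94 and 6.91 for WT, 6.97 and 7.17 for Chop null, 7.65 and 7.61 for S63del, and 7.65 and 7.48 for S63del/Chop null at P5. The arrays with and without S63del did not overlap, but the difference of 0.71 ± 0.20 over WT missed the threshold (adjusted p = 0.0855). It passed with the 8 arrays of P5 alone (adjusted p = 0.00348) and with array weights (adjusted p = 0.00669). At P28 the values were 7.71 and 7.93 for WT, 7.66 and 7.35 for Chop null, 7.99 and 8.59 for S63del, and 7.94 and 8.56 for S63del/Chop null, so that 1 array of each S63del genotype lay close to WT. The difference was 0.47 ± 0.20 over WT (adjusted p = 0.19), and the rise of 0.74 ± 0.20 over Chop null (adjusted p = 0.0222) was lost without Chop null replicate 2 (0.59, adjusted p = 0.18) or S63del/Chop null replicate 2 (0.43, adjusted p = 0.214), and with array weights (adjusted p = 0.474). Averaged over the 3 ages, S63del exceeded WT by 0.46 ± 0.12 in Cebpb (adjusted p = 0.0256), 0.73 ± 0.09 in Cebpd and 1.13 ± 0.11 in Atf3, which are 3 of 8 members beside 6.89% of all genes. Without single arrays the adjusted p of Cebpb ran up to 0.0818.

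Of 33 measured acute phase and cytokine genes linked to these factors 4 rose over WT at P5 and 0 fell, among them the oncostatin M receptor Osmr (0.93 ± 0.17) and the protease inhibitor Timp1 (1.50 ± 0.32). At P28 5 rose, with Saa1 (2.26 ± 0.30), an acute phase protein, Timp1 (2.14 ± 0.32) and Socs3 (1.31 ± 0.29), a brake on cytokine signalling, in front. The medians of the list over WT, 0.02 and 0.05, were close to those of all genes. Over Chop null 3 rose and 0 fell at P5, and 6 rose and 2 fell at P28, where 17.8% of all genes were called. Markers of macrophages, a cell type in which C/EBP factors are abundant, were counted too: 0 of 23 passed at P5, where their mean level was 8.56 to 8.73 in arrays with S63del and 8.51 to 8.70 in the others, while 4 rose at P28, with Ms4a7 (0.97 ± 0.20) and Ctss (0.96 ± 0.23) in front, and the levels were 9.20 to 9.37 and 8.89 to 9.11. Their part in the differences of Cebpb, Cebpd and Xbp1 at P28 was not tested.

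Other cell markers also moved with S63del. At P5 the mean level of red blood cell markers was 6.08 to 6.26 with S63del and 6.45 to 7.14 without, that of fibroblast and perineurium markers 10.61 to 10.69 and 10.78 to 10.98, and that of Schwann cell and myelin markers 11.34 to 11.52 and 11.79 to 11.84, of which 4 of 13 fell over WT and 0 rose. At P28 red blood cell markers were at 5.62 to 6.43 with S63del and 6.47 to 6.84 without, with 1 of 6 lower over WT and 3 of 6 lower over Chop null. Skeletal muscle markers at P28 were at 7.64 to 10.66 with S63del and 9.48 to 11.43 without. Their median difference was -2.06 over WT, where 0 of 19 passed, and -1.01 over Chop null, where 2 were lower, beside 4.62% and 17.8% of all genes called. The part of these shifts, and that of the 18S signal and the interquartile range at P28, in the members' differences was not tested.

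Cebpg, which encodes the pairing partner of ATF4 and other C/EBP proteins, and Nfil3 were apart by S63del at P28 by small distances. Cebpg was 8.67 and 8.54 for WT, 8.77 and 8.51 for Chop null, 8.89 and 8.90 for S63del, and 8.89 and 8.81 for S63del/Chop null at that age. The differences of 0.29 ± 0.12 and 0.21 ± 0.12 did not pass (adjusted p = 0.165 and 0.196). At P5 the difference was 0.06 ± 0.12 over WT (interval -0.18 to 0.31) and, with the opposite sign, -0.23 ± 0.12 over Chop null (interval -0.48 to 0.02, adjusted p = 0.678). The arrays of that second comparison did not overlap at P5, with 8.09 and 8.01 for S63del/Chop null and 8.26 and 8.30 for Chop null. They did not overlap at 4 months either, where S63del/Chop null was again the lower (-0.05).

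Nfil3 was dim, above the array median on 1 of 24 arrays. At P28 it ranged from 5.91 to 6.06 in arrays with S63del and from 5.13 to 5.76 in the others, with a difference of 0.46 ± 0.34 over WT (adjusted p = 0.471). At 4 months its 2 S63del/Chop null arrays read 7.23 and 5.74, so that 1 array gave the highest and the other one of the lower values, and no difference passed. Of 18 measured clock output genes around NFIL3 none passed in S63del against WT at any age.

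Counted over both S63del genotypes against both others, the 4 arrays with the mutant protein lay above the 4 without it at P5 in Atf3, Atf4, Cebpb and Cebpd, beside 11.0% of all genes, and below in Xbp1, beside 11.6%. At P28 they lay above in Atf3, Xbp1, Cebpb, Cebpd, Cebpg and Nfil3, beside 12.1% of all genes, and below in none, beside 8.01%. At 4 months no member was separated either way, beside 1.22% and 0.912%.

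Loss of CHOP itself left all 8 members without a call. In S63del/Chop null against S63del 0 of 8 passed at P5, P28 or 4 months, beside 0.0161%, 0.00807% and 0.00807% of all genes, and 1, 0 and 1 members had an unadjusted p under 0.05 (110, 466 and 274 genes). For Atf3 the differences were -0.26 at P5 (95% interval -0.67 to 0.16), 0.14 at P28 (-0.28 to 0.55) and -0.25 at 4 months (-0.67 to 0.17). A fall of Atf3 by 1 log2 unit thus lies outside each interval, as it does for Cebpd, whose intervals ran from -0.37 to 0.30, -0.28 to 0.39 and -0.54 to 0.13. For Xbp1 no interval went beyond 0.30 in either direction.

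Cebpg was the member whose difference had the same sign at all 3 ages, lower in S63del/Chop null by 0.26 ± 0.12 at P5 (-0.26) and at 4 months (-0.26), by 0.04 at P28 (-0.04) and by 0.19 ± 0.07 on average (-0.19), none past the threshold (adjusted p = 0.9999 for the average). Chop null against WT likewise gave 0 of 8 at each age, beside 0.00%, 0.00% and 0.00807% of all genes, with 0 members and 114, 1244 and 733 genes at an unadjusted p under 0.05, and the members' differences ran from -0.62 (Nfil3, 4 months) to 0.23 (Cebpd, P28). Ddit3, the deleted gene, was itself not called in this comparison at P5 (-0.91 ± 0.19) or P28 (-1.07 ± 0.19, limma, adjusted p = 0.119). It was called at 4 months (-1.92 ± 0.19). A lack of calls here thus does not by itself exclude differences of about that size. The 95% intervals say more. At P5 they ran from -0.55 to 0.29 for Atf3, -0.29 to 0.25 for Xbp1 and -0.25 to 0.41 for Cebpd. That of Nfil3 was the widest, from -0.90 to 0.55. A fall of 1 log2 unit lies outside each of these. The interaction, which asks whether the effect of S63del differs without CHOP, was called for 0 of 8 members and 0.00% of all genes at each age. No member and 107, 972 and 322 genes had an unadjusted p under 0.05. For Atf3 the interaction was -0.12 at P5 (interval -0.72 to 0.47) and 0.09 at P28 (-0.50 to 0.68), so that values within these bounds remain possible. With 2 arrays a group larger interactions could also miss the threshold over all genes. That of Ddit3, -1.76 ± 0.27 at P5, was not called (limma, adjusted p = 0.0846).

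**Figure D4:**
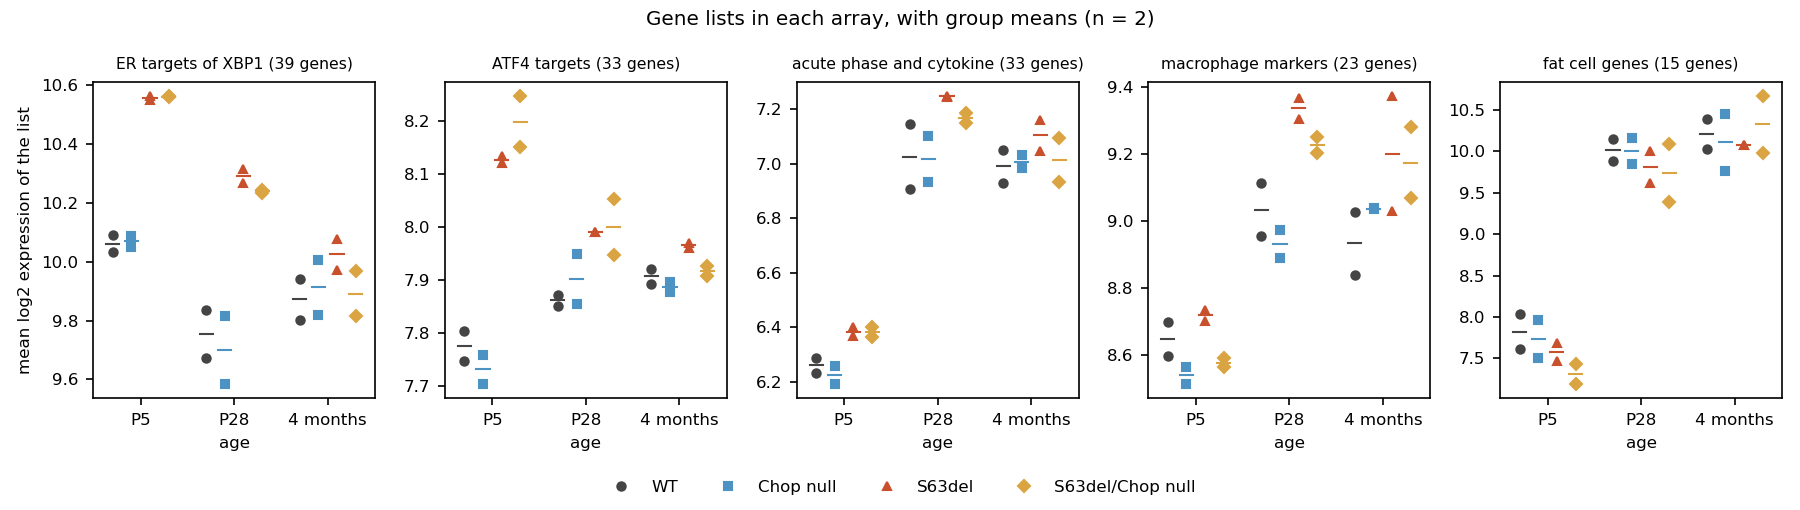
Mean log2 expression of 5 gene lists in every array, by age (x axis) and genotype (symbol and colour), with a line at each group mean of 2 arrays. The ER targets of XBP1 and the ATF4 targets are apart by S63del at P5 in all 8 arrays, and the fat cell genes are higher on every array after P5 than on any at P5.

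The C/EBP members differed between ages in WT nerve. Cebpa, the factor of fat and myeloid cells, had the widest range of the 8 over the study: it was 6.98 and 7.39 in WT at P5, 9.91 and 10.21 at P28, and 9.52 and 9.57 at 4 months. It rose by 2.88 ± 0.24 from P5 to P28 (7.35-fold, adjusted p = 9.13e-08) and by 2.36 ± 0.24 from P5 to 4 months (5.15-fold, adjusted p = 6.62e-07). In each genotype both P5 arrays lay below all later ones. By genotype Cebpa did not pass at any age, with 0.30 ± 0.24 at P5, -0.19 ± 0.24 at P28 and -0.03 ± 0.24 at 4 months in S63del against WT.

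From P5 to P28 in WT 5 of 8 members changed, beside 59.5% of all genes, so that the count by itself does not set them apart. Cebpd rose by 1.12 ± 0.16, Cebpb by 0.90 ± 0.20 and Cebpg by 0.36 ± 0.12 (adjusted p = 0.0147), and Xbp1 fell as given above. From P5 to 4 months 5 of 8 changed, beside 36.8%: Cebpd rose by 2.09 ± 0.16 (4.27-fold), Cebpg by 1.09 ± 0.12 (2.13-fold) and Cebpb by 1.01 ± 0.20 (2.02-fold), and Atf4 fell by 0.43 ± 0.12 (adjusted p = 0.00749; 0.0545 without WT 4-month replicate 1). The labels do not say whether the ages were hybridised together. The arrays of P28 had medians of 6.84 to 6.87 and interquartile ranges of 2.90 to 3.52. Those of P5 and 4 months had medians of 6.97 to 7.03 and interquartile ranges of 3.77 to 3.90. The part of this in the differences between ages was not tested. The age comparisons share the WT arrays at P5 with that of S63del against WT. In WT the mean level of skeletal muscle markers was 8.23 and 9.97 at P5, 11.06 and 10.44 at P28, and 6.61 and 7.17 at 4 months. The part of muscle tissue in the differences between ages was not tested.

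The other probe sets of these genes did not all move with age. The second one of Cebpb rose by 0.91 ± 0.21 to P28 but gave -0.02 ± 0.21 to 4 months. Of Cebpg, the 2 dimmer ones gave 0.01 ± 0.10 and -0.21 ± 0.16 to P28, and 0.17 ± 0.10 and -0.16 ± 0.16 to 4 months, so that the rise was read by the brightest only. With the mean of the 3 in its place Cebpg gave 0.05 from P5 to P28 (adjusted p = 0.631), and its call was also lost without WT P5 replicate 1 (adjusted p = 0.137) or WT P28 replicate 1 (adjusted p = 0.104).

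Beside the rise of Cebpa stood that of fat cell genes, of which 14 of 15 measured rose from P5 to P28 in WT, where 59.5% of all genes changed in either direction. Their median was 2.02, led by Cidec (3.69 ± 0.30), which coats lipid droplets, and Retn (3.53 ± 0.35), the hormone resistin. Their mean level was 7.19 to 8.03 over the 8 arrays at P5 and 9.39 to 10.16 at P28. Over the 24 arrays, age means removed, it had r = 0.82 with Cebpa, and Cidec was also the gene most like Cebpa of all (r = 0.82). Whether the amount of fat tissue taken with the nerve has a part in this was not tested.

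By the same measure, the 3 genes most like Atf3 were Lgals3 (r = 0.98), Uchl1 (0.97) and Hspa1a (0.97). Those most like Cebpd were Casp1 (0.96), Timp1 (0.96) and Mllt11 (0.95), and those most like Cebpb were Acadl (0.89), Mafg (0.87) and Fos (0.87). For Xbp1 they were Csrp2 (0.92), Erbb3 (0.91) and Tmem98 (0.91), of which Erbb3 is a receptor of Schwann cells. Atf4, Cebpg and Nfil3 had no gene above 0.81, the highest being Psmb4 (0.78), Atp7a (0.81) and Agtr2 (0.81). Among the members the closest pairs were Atf3 with Cebpd (0.91), Atf3 with Cebpb (0.77) and Cebpb with Cebpd (0.71), and the furthest apart were Atf4 and Cebpa (-0.44). These r values are over the same 24 arrays, which share genotype, and are given without a test.

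Of 36 other measured bZIP genes 2 rose in S63del over WT at P5, Fos (1.09 ± 0.21) and Fosl1 (1.06 ± 0.21), subunits of AP-1. At P28 5 rose, among them Fos (1.33 ± 0.21), its partner Jun (0.80 ± 0.20) and Mafg (0.53 ± 0.13), a small Maf protein. None fell over WT at either age, and at 4 months none passed. Without CHOP 2 rose over Chop null at P5, Fos (0.92 ± 0.21) and Maff (0.89 ± 0.22). At P28 6 of the 36 rose over Chop null, led by Fos (1.62 ± 0.21), Jun (1.36 ± 0.20) and Bach1 (1.06 ± 0.19), and 3 fell. Of all genes 2.40% were called over WT at P5 and 4.62% at P28, and over Chop null 1.78% and 17.8%.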

How the data were processed

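Total RNA of 24 sciatic nerve samples was hybridised to Affymetrix arrays. The authors deposited log2 values, 1 for each probe set, as their range shows. Their normalization and its software are unstated (not given in the sources used here). They were used without a further transformation. Of 22690 probe sets 20380 list 1 gene symbol in the platform annotation, 691 several, 1555 none and 64 are controls; only the first were used, and the probe set with the highest mean over all arrays stood for its gene (4956 genes have over 1), which leaves 12393 genes. Arrays have no read depth, and it is their number that limits precision.

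Group means of the 12 groups were fitted over all 24 arrays by lmFit and eBayes (limma 3.58.1 under R 4.3.3, with statmod 1.5.0; 12 residual and 4.75 prior degrees of freedom), without a replicate block. The 21 comparisons are contrasts of those means, adjusted over all genes by Benjamini-Hochberg, with a threshold of 0.05; probe sets were adjusted over all 20380. The fit was tested on simulated data. The members, the 11 gene lists (278 genes, 247 of them measured) and the comparisons were chosen with earlier results of these data known. The text names all members, up to 3 genes of a list with the smallest p in a comparison, and the 3 genes with the highest Pearson r to each member over the 24 arrays after the mean of each age was taken off. Gene lists are described by counts and medians, with no test of the list.

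Alternatives were averaging a gene's probe sets, fitting every probe set, normalizing by quantiles again, leaving out genes with a mean under the 40th percentile, using the 8 arrays of 1 age, weighting arrays, a robust fit with an intensity trend, blocking on the replicate number, and leaving out single arrays. A last one left out both WT replicate 1 at 4 months and Chop null replicate 2 at P28, which earlier work on these data had named as standing apart.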

Additional observations from a re-analysis of the deposited data

Results flagged for a closer look

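The difference of Atf3 between S63del and WT was 1.81 ± 0.20 at P5 and 0.42 ± 0.20 at 4 months, and the test of the change between these ages gave -1.39 ± 0.28 (limma, adjusted p = 0.0474). It is listed because the effect of the same contrast differed between 2 ages by a test of the difference itself. S63del exceeded WT at both ages in both pairs of arrays, which did not overlap. The adjusted p ranged from 0.0241 to 0.263 over 16 alternative settings, 5 of which kept the call.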

How the results depend on the processing

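No difference of a member changed direction past the threshold under any alternative. Of the recomputed values 2289 kept their side of the threshold, and either kept their direction or changed sign by less than the gene's SD within groups. Of the rest, 57 calls were lost, 13 were gained, and 44 values that were not called changed sign by at least that SD. With the mean of all probe sets, which adds the dim ones, S63del against WT gave 1 call at P5 (2 before) and 1 at P28 (3 before), and S63del/Chop null against Chop null gave 1 at P5 (2 before) and 2 at P28 (4 before). With array weights the latter contrast gave 4 at P5 and 0 at P28. With the 8 arrays of P28 alone, where 4 residual degrees of freedom remain, S63del against WT gave 0 calls and S63del/Chop null against Chop null 1. Without the 2 arrays that stand apart the latter gave 2 at P28, the difference of the S63del effect between P28 and P5 gave 1 (0 before), and that between 4 months and P5 gave 0 (1 before). The first of these differences, always that of Xbp1, also gave 1 with dim genes left out, with array weights and with an intensity trend, and the second gave 0 with a fit of all probe sets and with another quantile normalization. Apart from what the construction of a setting shows, the cause was not tested.

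With single arrays left out, the calls ran from 1 to 2 in S63del against WT at P5, 1 to 1 in S63del/Chop null against Chop null at P5, 1 to 3 in S63del against WT at P28, 2 to 5 in S63del/Chop null against Chop null at P28, and 0 to 0 in the S63del effect between 4 months and P5. A lone remaining array is assumed to vary like the other groups. The comparisons of S63del/Chop null with S63del and of Chop null with WT and the interactions gave 0 calls under every setting run.

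Replicate numbers showed no consistent pairing of the samples, though 2 arrays a group cannot exclude one. Within an age, deviations from the group means of same-numbered arrays correlated between -0.253 and 0.349 at P5, -0.323 and 0.214 at P28, and -0.477 and 0.104 at 4 months. Of 6 pairs at each age, 1, 2 and 2 were over 0.1. The replicate block left the counts at 2 and 3 in S63del against WT at P5 and P28, at 2 and 4 in S63del/Chop null against Chop null, and at 1 in the S63del effect between 4 months and P5, and changed no other call.

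Dim signal limits Nfil3, which the filter on dim genes removed (mean 6.06, percentile value 6.63), and the second probe sets of Cebpb and Cebpd. It also limits the dimmest probe sets of Atf4 (mean 5.03) and Cebpg (mean 5.33).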
